A study of Homo sapiens with 6 samples.

Results

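Myosin phosphatase and the RHOA and ROCK machinery that opposes it were followed through 10 genes, of 62438 in the count table. They include the myosin phosphatase targeting subunits PPP1R12A, PPP1R12B and PPP1R12C and the catalytic subunit PPP1CB. The others are the GTPase RHOA with its kinases ROCK1 and ROCK2, and the myosin genes MYL9, MYL12A and MYH9. PPP1R12A was chosen by its lower level in si-N6AMT1 libraries, that is, on the contrast described here, and the other 9 genes were set beside it as its paralogs, its partner and the contractile genes it acts on. Of the 10 genes, 9 passed the filter on low counts. MYL9 did not.

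The libraries came from a human breast cancer line that the labels name as MDA-MB-453. Either scrambled siRNA (si-CN) or siRNA targeting N6AMT1 (si-N6AMT1) was delivered at 10 nM by the same lipid reagent, and RNA was taken at 48 h. Each group has 3 libraries, with 19739247 to 21289740 counts per library. No second siRNA and no untransfected culture was analysed here, so an effect of N6AMT1 loss and an off-target effect of this siRNA cannot be told apart. The study asked which genes depend on N6AMT1, an enzyme it describes as a methyltransferase for adenine in DNA.

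In most animal cells, contraction depends on how many regulatory light chains of non-muscle myosin II carry a phosphate. Myosin light chain kinase and the ROCK kinases add it, and myosin phosphatase takes it off. The phosphatase joins the catalytic subunit PP1β (PPP1CB) to a targeting subunit, of which MYPT1 (PPP1R12A) is the best known. Active RHOA switches on ROCK1 and ROCK2, which phosphorylate MYPT1 and thereby weaken the phosphatase. In breast epithelium this system is known for its role in cell shape, junctions, division and migration.

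As a check of the labels, N6AMT1 (ENSG00000156239, chromosome 21, 30244513 to 30257693, minus strand, hg19) had 136, 135 and 141 counts in the si-CN libraries and 61, 72 and 60 in the si-N6AMT1 libraries. These are 6.81 ± 0.145 and 3.18 ± 0.312 CPM (counts per 1000000, scaled by edgeR's TMM method; SD, n = 3), a log2 difference of -1.10. The markers went in part against the cell line's label. MDA-MB-453 is known as a luminal line, yet the luminal marker TFF3 was at 0 counts in all 6 libraries and SPDEF and MLPH had at most 6 counts in any, while the basal keratin KRT17 stood at 2848 CPM and the basal factor TP63 at 207 CPM in si-CN. Other genes of the luminal list were present in si-CN, with KRT8 at 600 CPM, KRT18 at 461, EPCAM at 316, XBP1 at 79.1, ERBB2 at 53.7 and FOXA1 at 8.42 CPM, and KRT19 and GATA3 were low at 0.499 and 2.67 CPM. The reported genes of the luminal list are thus mixed. Of the basal list, OXTR and CNN1 were low, at 6.56 and 0.673 CPM. Of the blood cell markers, CD68 alone differed, with 142 CPM in each si-CN library and 196 to 204 in si-N6AMT1, so the 6-gene list summed to 142 CPM in si-CN and 196 to 204 CPM in si-N6AMT1. The other 5, PTPRC and CD3E among them, had at most 3 counts in any library. Smooth muscle markers summed to 135 to 141 CPM in si-CN and 134 to 137 in si-N6AMT1, mostly from SMTN and ACTA2. Mitochondrial genes took 3.64% to 3.86% of counts in si-CN and 2.91% to 3.11% in si-N6AMT1. The part of CD68 and of the mitochondrial share in the results below was not tested.

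Stretches of the 3′ UTRs are shown first, because 2 overlapping sequences of 7 bases, TTCACAT and TCACATA, were picked out in an earlier reading of these same fold changes. They were searched on the transcript strand of each gene's reference transcript, and where they overlap they form the 8-base run TTCACATA. Of 13150 UTRs searched, 22.5% held either sequence and 4.7% held the 8-base run. PPP1R12A held 2 sites in 2361 bases of UTR, and 30.8% of UTRs of 0.8 to 1.25 times its length held at least 1. In each line the window is written 5′ to 3′ on the gene's strand with hg19 coordinates in the text that follows, and the capitals mark the match.

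PPP1R12A site 1: ttctgtaatcTTCACATtcattttagc

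PPP1R12A site 2: tgctttacatTTCACATAcctatattta

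PPP1R12B site 1: tccctgccacTTCACATgacccttcca

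PPP1R12B site 2: cttatgtgcgTTCACATgcacatttgc

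PPP1CB site: acacattttaTTCACATAgatactatgt

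ROCK1 site 1: gtgggaatagTTCACATgaaaagctgg

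ROCK1 site 2: ttaattccacTTCACATAttgaaagtct

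ROCK2 site: atggagattcTTCACATtatatggttt

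MYL12B site: aaattgatttTTCACATAtatgggacag

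The PPP1R12A windows lie at chr12:80168904-80168930 and chr12:80168592-80168619 on the minus strand, and the matches cover bases 789 to 795 and 1100 to 1107 of the UTR. The PPP1R12B windows lie at chr1:202552481-202552507 and chr1:202556017-202556043 on the plus strand. Its UTR of 12142 bases is the longest of the 10, and 85.2% of UTRs of like length held a site. The PPP1CB window is chr2:29023952-29023979 on the plus strand. ROCK1 held its sites at chr18:18529649-18529675 and chr18:18527138-18527165, and ROCK2 at chr2:11321071-11321097, all on the minus strand. MYL12B, the near copy of MYL12A and not one of the 10 genes, is shown as well (chr18:3278365-3278392, plus strand). MYL12A held no match in its 318 bases. PPP1R12C, RHOA, MYL9 and MYH9 held none either. A match is a description of the sequence only. The 5 tested genes with a match ran from a log2 fold change of -0.53 (PPP1R12A) to 0.03 (PPP1R12B). The 4 without one ran from -0.12 (MYH9) to 0.09 (PPP1R12C). PPP1R12A and the sequences were both chosen on these fold changes, so nothing is read from the 2 ranges.

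PPP1R12A (ENSG00000058272, chromosome 12, 80167343 to 80329240, minus strand) encodes MYPT1, the subunit that holds the phosphatase on myosin. It had 119.7, 120.6 and 119.9 CPM in the si-CN libraries (replicates 1 to 3) and 84.1, 84.3 and 81.3 CPM in the si-N6AMT1 libraries. The 6 values formed 2 separate groups with little spread inside either. The means were 120.1 ± 0.453 and 83.2 ± 1.70 CPM (SD, n = 3), a log2 fold change of -0.53 (standard error 0.028), or 30.7% lower in si-N6AMT1. Since the gene was selected on this difference, no p-value is given. Across all 17320 genes tested, 1.59% had a lower log2 fold change. In bulk RNA, fewer cells with a transcript and less of it in each cell cannot be told apart.

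PPP1R12B (ENSG00000077157), which encodes MYPT2, the form known from heart and skeletal muscle, had 48.2, 51.3 and 52.4 CPM in si-CN and 53.1, 52.1 and 49.6 CPM in si-N6AMT1. The groups overlapped and the gene was not called. Its log2 fold change was 0.03, with a 95% interval of -0.06 to 0.11. PPP1R12C (ENSG00000125503), which encodes MBS85, had 30.4, 33.5 and 33.1 CPM in si-CN and 33.4, 34.8 and 35.3 CPM in si-N6AMT1. Here too the groups overlapped, and the log2 fold change of 0.09 had an interval of -0.00 to 0.19. Without si-CN replicate 1 it was 0.05.

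PPP1CB (ENSG00000213639), the catalytic partner, had 241.9, 238.3 and 242.4 CPM in si-CN and 228.3, 226.7 and 235.2 CPM in si-N6AMT1. Every si-N6AMT1 library lay below every si-CN library, but by little. The log2 fold change was -0.07 (standard error 0.023) and passed the threshold of 0.05 on the false discovery rate (FDR, edgeR's quasi-likelihood test adjusted over all genes tested) narrowly. The call was lost under DESeq2, without the expression filter and in 5 of the 6 fits that left out 1 library, namely each library other than si-N6AMT1 replicate 3.

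**Figure D1:**
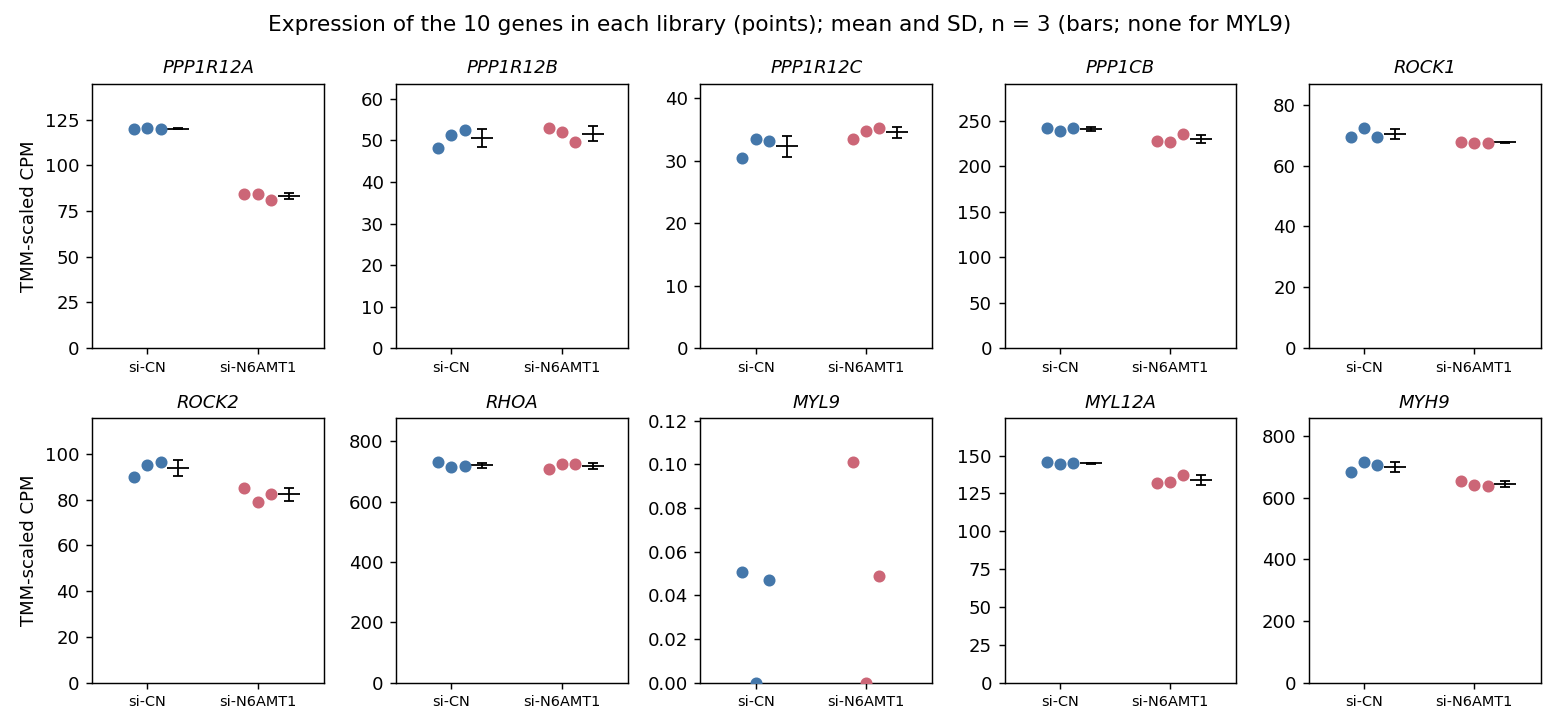
Expression of the 10 genes in TMM-scaled CPM (y axis, from 0 in each panel) in each of the 3 si-CN (blue) and 3 si-N6AMT1 (red) libraries, with the mean and SD beside the points except for MYL9, which had 0 to 2 counts per library. PPP1R12A stands at about 120 CPM in si-CN and 81.3 to 84.3 in si-N6AMT1, whereas the points of PPP1R12B, PPP1R12C and RHOA overlap between groups.

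RHOA (ENSG00000067560), the GTPase at the head of the pathway, was at 730.0, 714.9 and 718.4 CPM in si-CN and 707.6, 724.1 and 725.1 CPM in si-N6AMT1. The libraries of the 2 groups were interleaved. The log2 fold change was -0.00 with an interval of -0.05 to 0.04, and its sign turned when si-N6AMT1 replicate 1 or si-CN replicate 1 was left out (0.01 and 0.00).

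The ROCK kinases differed from each other in their values. ROCK1 (ENSG00000067900) had 69.6, 72.5 and 69.3 CPM in si-CN and 67.8, 67.6 and 67.6 CPM in si-N6AMT1. Its groups did not overlap, yet the log2 fold change of -0.06 (standard error 0.033, 95% interval -0.13 to 0.01) was not called. ROCK2 (ENSG00000134318) had 89.8, 95.3 and 96.2 CPM in si-CN and 85.1, 79.1 and 82.6 CPM in si-N6AMT1. The highest si-N6AMT1 library was below the lowest si-CN library, and the gene was called lower at -0.19 on the log2 scale (standard error 0.034). Whether the 2 kinases differed in their response was not tested.

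MYH9 (ENSG00000100345) encodes the heavy chain of non-muscle myosin IIA, the motor itself. It had 682.0, 713.8 and 705.3 CPM in si-CN and 654.2, 640.2 and 638.2 CPM in si-N6AMT1. All si-N6AMT1 libraries were lower, and the gene was called lower at -0.12 on the log2 scale (standard error 0.022). MYL12A (ENSG00000101608), a regulatory light chain and so a substrate of both the kinases and the phosphatase, had 145.4, 144.5 and 144.8 CPM in si-CN and 131.7, 132.5 and 137.3 CPM in si-N6AMT1. The si-CN libraries lay within 1 CPM of each other and above all si-N6AMT1 libraries, and the gene was called lower at -0.11 (standard error 0.026). MYL9 (ENSG00000101335), the light chain typical of smooth muscle, had 1, 0 and 1 counts in si-CN and 2, 0 and 1 in si-N6AMT1. All 6 values are under a floor of 3 counts per library, so no fold is given. The smooth muscle genes MYOCD and LMOD1 were also near 0, with at most 5 counts in any library.

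Of the 9 tested genes, 5 were called lower (PPP1R12A, PPP1CB, ROCK2, MYL12A and MYH9) and 0 higher. PPP1R12A was chosen on this contrast, so its own call is no result. It also enters the overlap count and the median below. Over all genes tested, 11.5% were called lower and 9.78% higher. No member had a positive log2 fold change at an unadjusted p under 0.05, by edgeR or by DESeq2. The groups did not overlap in 6 of the 9, against 34.9% of all genes tested. The median log2 fold change was -0.07 for the 9 genes and 0.00 for all genes tested. Because the gene set was assembled around PPP1R12A with this contrast in view, nothing is read from these counts. The other 8 values lay between -0.19 and 0.09, as the plot of the members among all genes tested shows.

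**Figure D2:**
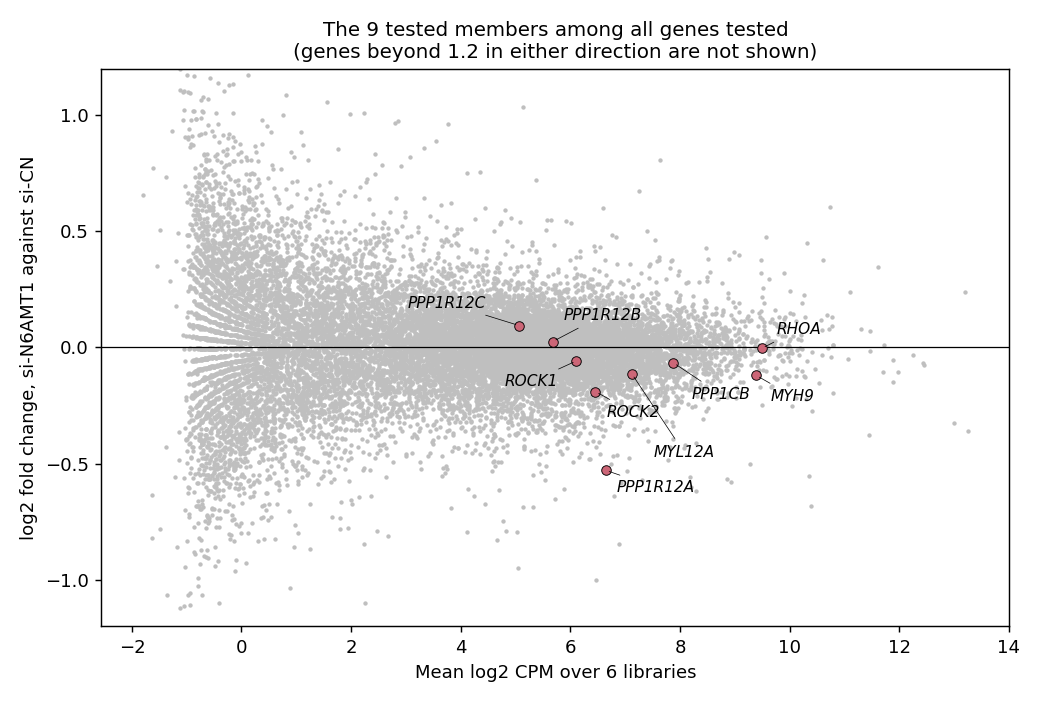
Log2 fold change of si-N6AMT1 against si-CN (y axis) against mean log2 CPM over the 6 libraries (x axis) for all genes tested (grey) and the 9 tested members (red), with genes beyond 1.2 in either direction left off. PPP1R12A sits at -0.53, and the other 8 members sit between -0.19 and 0.09, inside the cloud of genes of like expression.

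**Figure D3:**
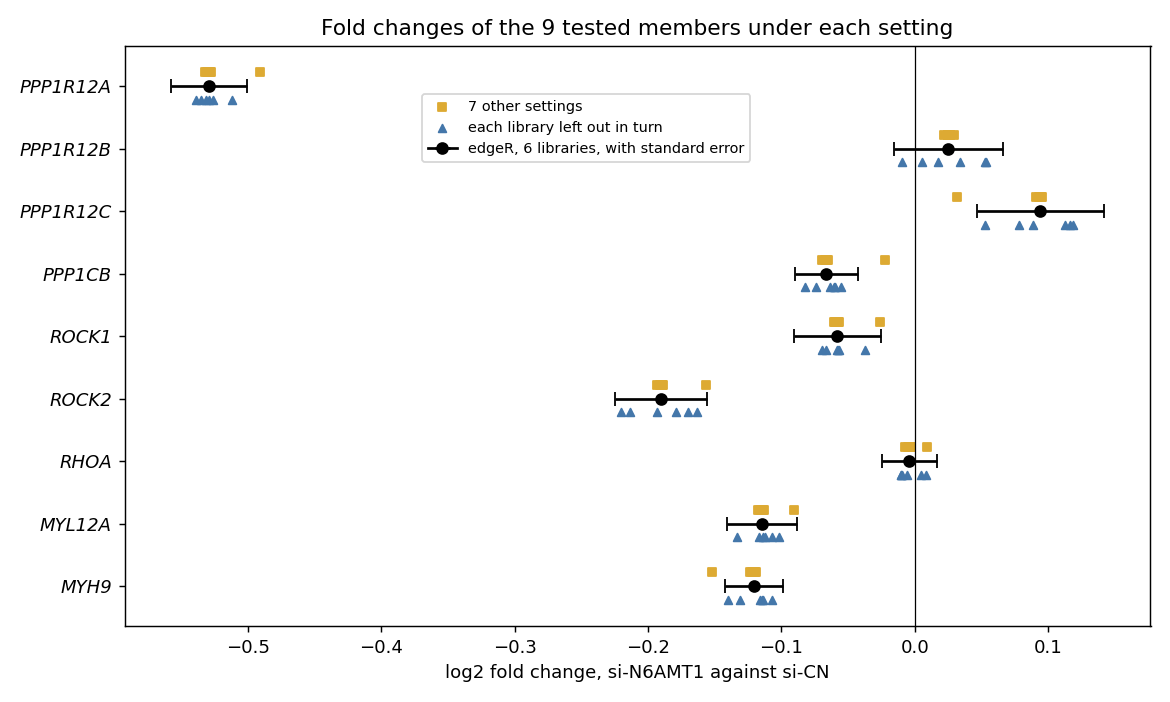
Log2 fold change (x axis) of each tested member in edgeR with all 6 libraries (black circle, standard error as bar), in 7 other settings (yellow squares) and after dropping 1 library at a time (blue triangles). PPP1R12A stays between -0.54 and -0.49, and ROCK2, MYL12A and MYH9 stay below 0 throughout, while PPP1R12B and RHOA cross 0.

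Levels of different genes were compared as TPM (transcripts per 1000000), in which counts are first divided by reference transcript length. In si-CN the order was RHOA at 889 TPM, MYL12A at 337, MYH9 at 209, PPP1CB at 109, PPP1R12A at 47.5, ROCK2 at 25.0, PPP1R12C at 24.0, ROCK1 at 16.6, PPP1R12B at 7.39 and MYL9 at 0.026 TPM. ROCK2 and PPP1R12C, with SDs of 1.21 and 1.51 TPM over 3 libraries, did not differ beyond their spread. All other neighbours were separated by more than their SDs. With the summed exons of each gene as its length, ROCK1 (20.5 TPM) came above PPP1R12C (16.1 TPM), and the other neighbours kept their order.

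Of the 3 PPP1R12 genes, PPP1R12A was thus the highest by transcript level. It made up 59.6% to 61.6% of their TPM in the si-CN libraries and 49.1% to 50.5% in the si-N6AMT1 libraries. These shares leave out PPP1R16A, one of the other type 1 phosphatase subunits below. PPP1R16A was at 27.5 TPM in si-CN and 30.0 TPM in si-N6AMT1, above PPP1R12C in both groups. PPP1R12C took 30.4% ± 0.929 in si-CN and 38.7% ± 1.11 in si-N6AMT1 (SD, n = 3), and PPP1R12B the rest. With summed exons as length, the mean share of PPP1R12A was 60.8% in si-CN and 50.5% in si-N6AMT1. That of PPP1R12C was then 24.8% and 31.9%. Together the 3 genes summed to 75.9, 80.6 and 80.3 TPM in si-CN and to 66.4, 66.1 and 65.3 TPM in si-N6AMT1, 16.5% lower on average. The si-N6AMT1 sums all lay below the si-CN sums, and PPP1R12A supplied the difference, since the mean TPM of neither paralog was lower. The TPM ratio of PPP1R12A to PPP1CB was 0.436 ± 0.00564 in si-CN and 0.317 ± 0.0126 in si-N6AMT1 (SD, n = 3). These are descriptions of the gene used for the choice and carry no test.

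The catalytic, kinase and myosin families were also summed. PPP1CB supplied 20.3% of the TPM of the 3 PP1 catalytic genes in si-CN, with PPP1CC at 46.2% and PPP1CA at 33.6%. With summed exons as length PPP1CB came above PPP1CA (31.9% and 27.7%), so their order depends on the length used. The catalytic sum was 538 ± 8.97 TPM in si-CN and 540 ± 7.16 TPM in si-N6AMT1. Of the ROCK transcripts, ROCK2 made up 60.1% in si-CN and 57.9% in si-N6AMT1. MYH9 made up 88.7% of the myosin II heavy chains in si-CN and MYH10 10.7%. Among regulatory light chains, MYL12B held 66.1% and MYL12A 33.9% in si-CN. With summed exons as length these shares were 80.5% and 19.5%. MYL9 held 0.003% in si-CN, from counts under the floor given above. MYL12B itself had 344 CPM in si-CN and 336 in si-N6AMT1 and was not called (log2 fold change -0.03, standard error 0.025). Its UTR holds the 8-base run shown above and that of MYL12A does not. Any link between the run and the levels of these genes was not tested.

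**Figure D4:**
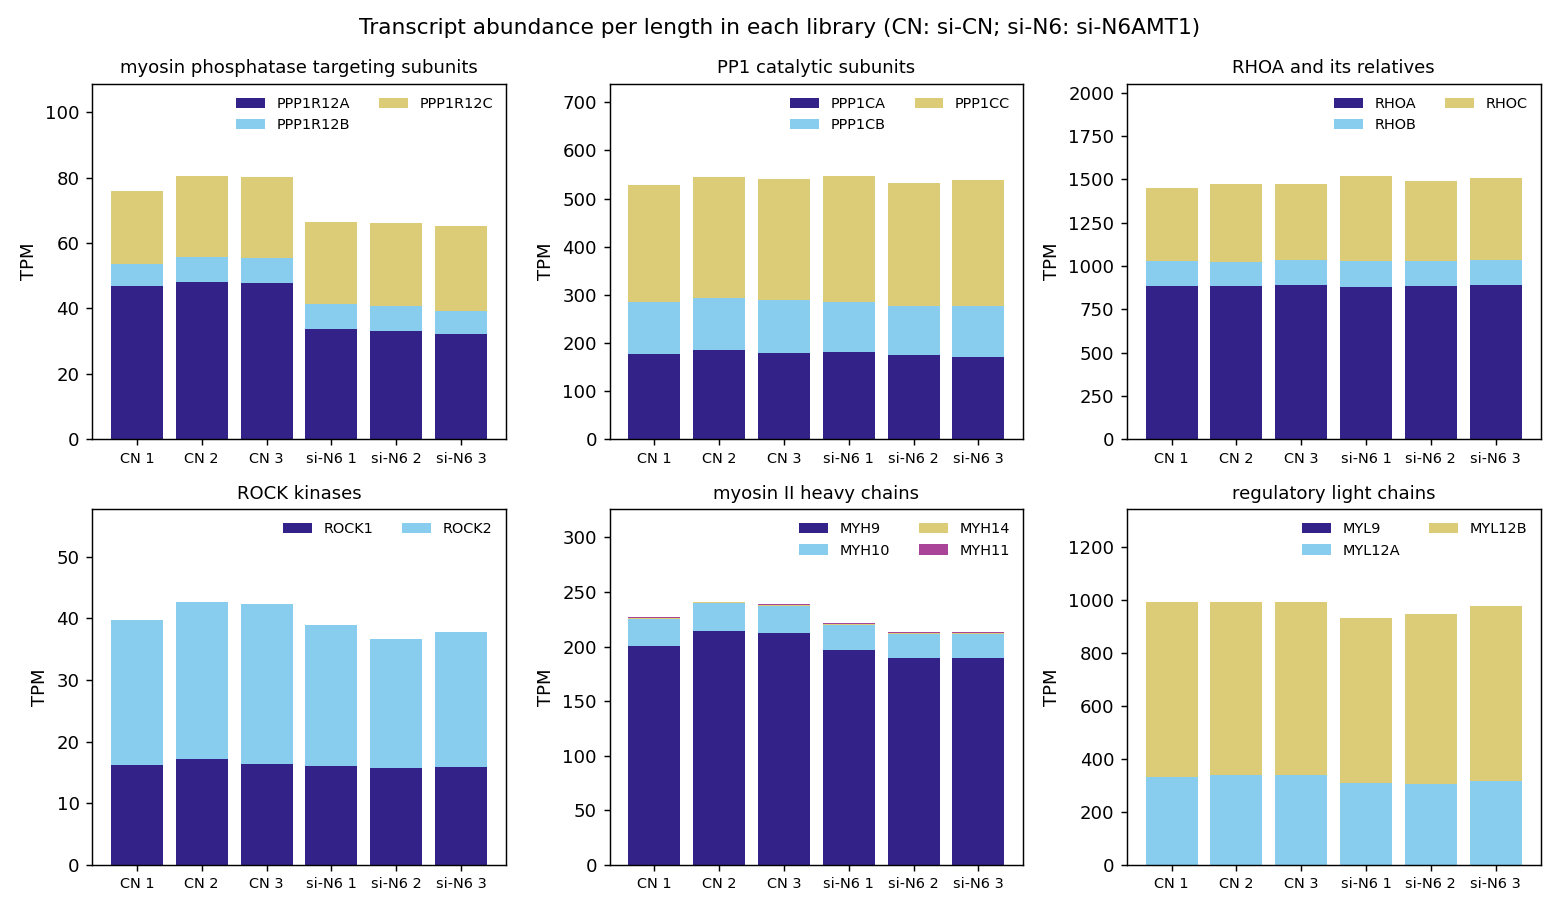
Stacked TPM (y axis, from 0) of the genes of 6 families in each library, si-CN on the left and si-N6AMT1 on the right of each panel. The dark PPP1R12A segment goes from a mean of 47.5 TPM in si-CN to 32.9 TPM in si-N6AMT1 while the segments above it do not shrink, and MYL9 is too low to be seen.

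Genes that share sequence or position with the members were looked up because kallisto divides reads among similar transcripts. The pseudogene ROCK1P1 had 24 to 44 counts in si-CN and 23 to 38 in si-N6AMT1. Against PPP1R12A, the antisense genes PPP1R12A-AS1 (22, 13 and 24 counts in si-CN, 10, 16 and 11 in si-N6AMT1) and PPP1R12A-AS2 (36, 36 and 46 counts, then 40, 34 and 26) held few reads beside the 1667 to 2544 counts of PPP1R12A, and their groups overlapped. Divergent, intronic and antisense genes beside PPP1CB, RHOA, MYH9 and MYL12A (PPP1CB-DT, RHOA-IT1, MYH9-DT and MYL12-AS1) held at most 11 counts in any library. The strand option used for counting is not given in the sources used here.

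Other genes of the pathway were taken from 6 lists that together held 126 genes, 119 of them tested. Of these, 29 were called lower (24.4%) and 17 higher (14.3%), the median log2 fold change was -0.02, and the groups did not overlap in 57 (47.9%). Over all genes tested, these shares were 11.5% lower, 9.78% higher and 34.9% not overlapping, and the counts of each list below stand beside the same background. The lists were not matched to all genes for expression.

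Among the GTPases related to RHOA and their regulators, 6 of 25 tested genes were called lower and 6 higher, with a median of -0.03. RACGAP1, a GTPase-activating protein of the dividing cell's furrow, fell from 94.5, 90.8 and 95.4 CPM in si-CN to 80.9, 81.3 and 79.6 CPM in si-N6AMT1 (log2 fold change -0.22, standard error 0.031, FDR = 1.49e-05, edgeR). RND3, an atypical GTPase that opposes ROCK1, rose from 200.2, 203.6 and 201.3 CPM to 257.2, 262.6 and 264.1 CPM (0.37, standard error 0.023, FDR = 4.77e-11, edgeR). No library of 1 group reached the other group in either gene. The RHOA relatives RHOB and RHOC were both called higher, at 0.09 and 0.12, where RHOA was not called. The other genes called lower were ARHGEF12, ECT2, ARHGAP5, ARHGAP35 and ARHGDIB, and the others called higher were ARHGEF2, PLEKHG5 and ARHGAP29.

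Of 17 other kinases that act on myosin light chain or MYPT1, 5 were called lower and 1 higher, with a median of -0.06. The count of 5 dropped to 3 under DESeq2 and without si-N6AMT1 replicate 2, si-N6AMT1 replicate 3, si-CN replicate 2 or si-CN replicate 3. PAK1, a kinase downstream of Rac and Cdc42, fell from 116.6 to 119.5 CPM in si-CN to 106.1 to 107.8 CPM in si-N6AMT1 (-0.14, standard error 0.027, FDR = 0.000695, edgeR). CIT, CDC42BPA, ILK and PKN2 were the others called lower, though the groups of CDC42BPA overlapped. NUAK2 was called higher at 0.15, a call lost under DESeq2 and without si-N6AMT1 replicate 1, si-CN replicate 1 or si-CN replicate 2. MYLK, the dedicated light chain kinase, was at 5.13 CPM in si-CN and 5.35 CPM in si-N6AMT1 and was not called (0.06, standard error 0.114).

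Of 20 other type 1 phosphatase subunits and inhibitors, 2 were called lower and 2 higher. PPP1R15A, known as GADD34, which directs the phosphatase to the translation factor eIF2α, fell from 303.4 to 308.5 CPM in si-CN to 265.9 to 277.0 CPM in si-N6AMT1 (-0.18, standard error 0.023, FDR = 3.32e-06, edgeR). PPP1R18 was the other one called lower. PPP1CC, another catalytic subunit, was called higher at 0.07 and PPP1R9B at 0.09, but both calls were lost under DESeq2, without the expression filter, and without si-N6AMT1 replicate 3, si-CN replicate 1 or si-CN replicate 3. PPP1CC also lost its call without si-CN replicate 2, and PPP1R9B without si-N6AMT1 replicate 1.

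The other myosin II chains and binding proteins held 6 of 13 tested genes called lower and 1 higher, with a median of -0.06. MYH10, the heavy chain of non-muscle myosin IIB, fell from 86.2, 88.1 and 86.8 CPM in si-CN to 77.3, 77.8 and 75.8 CPM in si-N6AMT1 (-0.18, standard error 0.030, FDR = 0.000137, edgeR), so that both abundant heavy chains, MYH9 and MYH10, had lower values in every si-N6AMT1 library. SEPTIN7, a cytoskeletal GTPase, fell from 219.8 to 224.7 CPM to 182.2 to 191.1 CPM (-0.25, standard error 0.025, FDR = 1.09e-07, edgeR). CALD1, SEPTIN9, MYL6B and ANLN were the others called lower. The essential light chain gene MYL6 was called higher at 0.08, and that call was lost under DESeq2 and without si-N6AMT1 replicate 2, si-N6AMT1 replicate 3 or si-CN replicate 3.

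The list named for actin regulators downstream of ROCK gave 9 genes called lower and 4 higher of 28. It also holds actins, formins and general actin-binding genes, so it is not a list of ROCK targets. RDX, which encodes radixin and ties actin to the membrane, fell from 110.0 to 115.2 CPM in si-CN to 86.2 to 89.2 CPM in si-N6AMT1 (-0.35, standard error 0.029, FDR = 6.17e-09, edgeR). The related EZR (ezrin) was called higher at 0.07 and MSN (moesin) lower at -0.12, so the 3 ERM genes did not move one way. LIMK1, a ROCK substrate that inactivates cofilin, rose from 56.6 to 57.2 CPM to 64.9 to 69.4 CPM (0.25, standard error 0.036, FDR = 1.47e-05, edgeR). SSH1, a phosphatase that reverses LIM kinase action on cofilin, was called higher as well, at 0.16. The formin genes DIAPH1 and DIAPH3 were called lower at -0.11 and -0.34, as were ACTN1, TPM1, TPM4, VCL and FLNA. TPM2 was called higher at 0.31. ACTN1 passed the threshold narrowly (-0.06, FDR = 0.0486, edgeR). The count of 9 called lower was 8 under RLE factors, under DESeq2 and without the expression filter, and 7 with the replicate block. It was 7 without si-N6AMT1 replicate 3 or si-CN replicate 3, and 8 without any other single library.

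SRF, its MRTF cofactors and target genes of either formed a list of 19 tested genes. Of these, 3 were called lower and 4 higher, with a median of 0.02. MYH9 and MYL9, described above, were left out of this list. The list is not a measure of the state of actin. VCL (vinculin) fell from 543.1 to 556.2 CPM in si-CN to 483.1 to 491.6 CPM in si-N6AMT1 (-0.17, standard error 0.021, FDR = 2.17e-06, edgeR). FOS rose from 166.7 to 176.0 CPM to 222.6 to 225.0 CPM (0.38, standard error 0.025, FDR = 1.79e-10, edgeR). CCN1, EGR1 and TPM2 were also called higher, and TPM1 and the cofactor gene MRTFB lower. The list therefore held members in both directions. VCL, TPM1 and TPM2 are counted in this list and among the actin regulators.

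**Figure D5:**
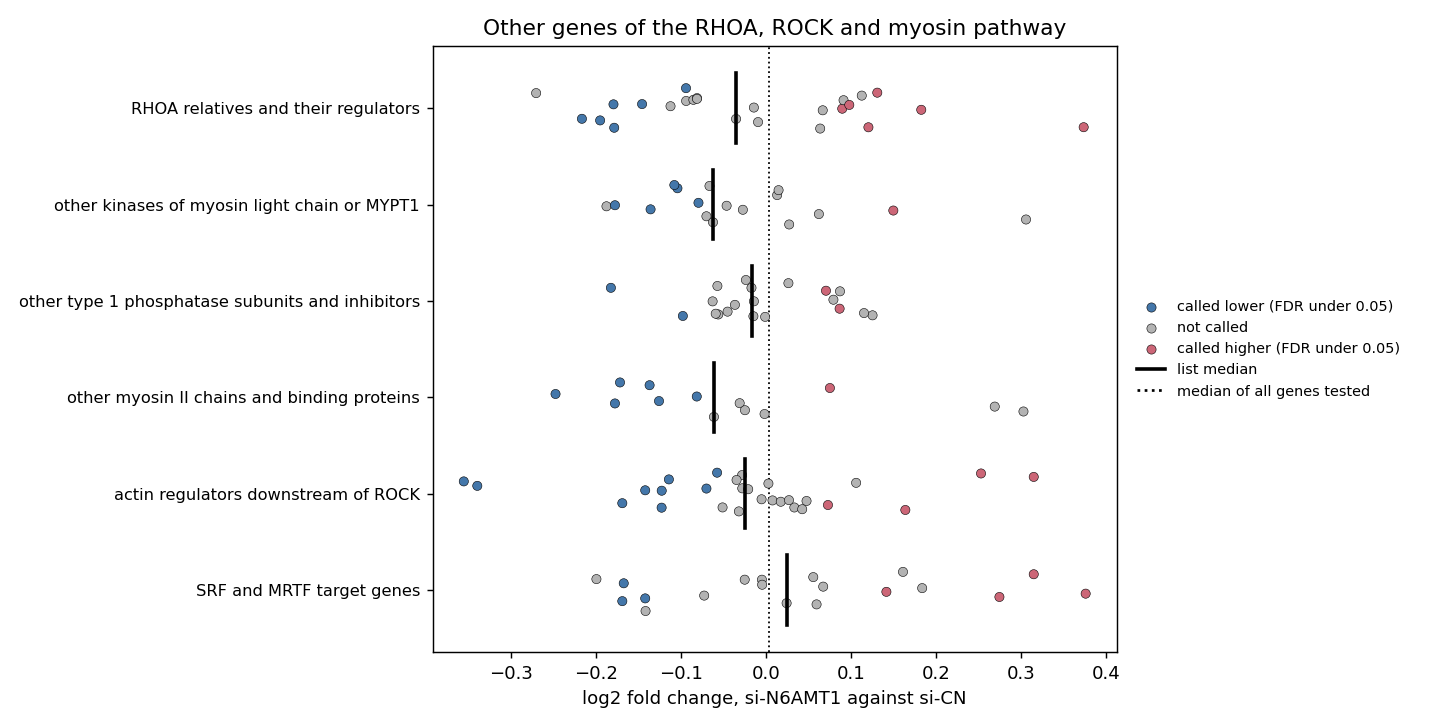
Log2 fold change of si-N6AMT1 against si-CN (x axis) of each tested gene of the 6 pathway lists (rows), coloured by call, with the median of each list (bar) and of all genes tested (dotted line). All 6 lists hold genes called in both directions, and the list medians lie between -0.06 and 0.02.

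With the 3′ UTR sequences in view, 11 of 32 pathway genes with TTCACAT or TCACATA were called lower (34.4%) and 2 higher, against 18 lower (20.7%) and 15 higher of 87 without. RACGAP1, SEPTIN7, RDX and VCL were among the 11. Over all genes with a UTR searched, 28.4% of those with a match and 10.4% of those without were called lower. The sequences were picked on these fold changes, so these shares describe the genes and support nothing.

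The genes whose profile over the 6 libraries was most like that of PPP1R12A, by Euclidean distance of centred log2 CPM, were INTS2 (0.041), PRPS1P2 (0.052), TFAM (0.067), ATP2A2 (0.070) and CCND1 (0.081). INTS2 had 29.1 to 29.7 CPM in si-CN and 20.5 to 20.7 CPM in si-N6AMT1, and ATP2A2, a calcium pump of the endoplasmic reticulum, 559.5 to 563.0 and 375.1 to 382.7 CPM. CCND1, which encodes cyclin D1, went from 190.1 to 196.5 CPM in si-CN to 128.4 to 131.4 CPM in si-N6AMT1. Each of the 5 had a gap between groups like that of PPP1R12A, which is what the measure selects. PRPS1P2, a pseudogene with 23 to 36 counts per library, was not called.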

How the data were processed

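The authors trimmed paired-end reads with Trim Galore, ran kallisto v0.46.0 with GENCODE transcripts (hg19) to estimate counts, and added up the transcripts of each gene. What the authors deposited are expected counts (estimated counts) in whole numbers, not normalized. All 6 columns were matched to samples by name. Here, symbols, positions, transcript lengths and UTRs came from GENCODE on GRCh37, which named 62149 of 62438 genes. Counts were filtered with edgeR's expression filter (minimum count 10), scaled by TMM and tested by edgeR v4.0.16 (quasi-likelihood, R v4.3.3) on 17320 genes with no covariate, at a Benjamini-Hochberg FDR of 0.05. The procedure was tested on simulated data. At 1 CPM a library has 19.6 to 21.2 counts, which limits the precision of low genes. Library pairs of one group differed by 1.36 to 1.77 times the sampling variance (chi-square over degrees of freedom), so none was counted as a duplicate. The labels do not say whether replicates were separate cultures, so p-values measure only the spread between these samples. That spread was small (edgeR's coefficient of variation between libraries, 1.85%), so differences of a few percent could be called. The members and lists were chosen with earlier results of these data known. Named genes are N6AMT1, the members, their copies and antisense genes with counts, the lowest FDR per list and direction, and the 5 nearest profiles. Other genes of a list or family were named after their values were seen. Alternatives were RLE factors, DESeq2 v1.42.0, other filters, the replicate block and leaving out libraries.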

Additional observations from a re-analysis of the deposited data

How the results depend on the processing

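Over all settings, 4 or 5 members were called lower and 0 higher, and only the call of PPP1CB changed. These counts include PPP1R12A, which was chosen on this contrast. DESeq2 called 1136 genes lower and 796 higher, and 1240 and 930 on genes of at least 1 TPM. It called 11 pathway genes higher in both, as did the replicate block with GC correction (added after seeing the data). Same-numbered libraries did not deviate together (correlations -0.038, -0.042 and 0.010). With the replicate block, 1804 genes were lower and 1522 higher, 4 members lower, and 25 pathway genes lower and 13 higher. With each library left out, 1540 to 1818 genes were lower and 1295 to 1523 higher, with 23 to 29 and 13 to 17 pathway genes. PPP1R12B ran from -0.0093 (without si-CN replicate 1) to 0.0533 with each library left out. RHOA ran from -0.0105 to 0.0083, turning positive without si-N6AMT1 replicate 1 (0.0083) or si-CN replicate 1 (0.0044), and was 0.0095 with the block and GC correction. PPP1R12C was 0.03 and PPP1CB -0.02 with the block and GC correction. The calls of PPP1CB and MYL6 were lost with the block, with and without GC correction, and that of PPP1CC with the block alone. PPP1R9B was not called higher with the block either. NUAK2 was not called higher with the block and GC correction. Both block fits called 3 of the other kinases lower. The cause was not tested. Genes under the expression filter, such as MYL9, were not tested. For MYL9, absence of the transcript and a level too low for this depth cannot be told apart.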
